A study of Rattus norvegicus with 8 samples.

Results

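The metalloproteinases and their inhibitors were described in 8 cultures of rat oligodendrocyte precursor cells (OPCs), 4 from male and 4 from female animals. Members were all genes of the deposited table whose symbol is that of a matrix metalloproteinase (Mmp), an ADAM, an ADAMTS or a tissue inhibitor of metalloproteinases (Timp). This gave 70 of 32883 genes, with 22 Mmp, 25 Adam, 19 Adamts and 4 Timp genes. The rule itself selects by symbol alone.

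The study compared the sexes. The cells were isolated from cerebral cortex of Sprague Dawley rats aged 1 to 2 days. Glia were first grown together in DMEM with 20% serum, and the cells that did not adhere were kept for 4 to 5 days in Neurobasal medium with B27 (2%), PDGF and FGF (each at 10 ng/ml). Sex, given in the sample titles, was the only factor, and the labels name no genetic change or further treatment. The labels do not say whether the libraries of 1 sex came from separate litters or animals, and the p-values therefore reflect no more than the spread among these libraries, part of which may be technical.

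Metalloproteinases hold a zinc ion in their active site and cut proteins outside the cell or at its surface. MMPs cut matrix proteins and other secreted or membrane proteins, ADAMs release the outer parts of membrane proteins such as growth factors and Notch, and ADAMTS enzymes cut proteoglycans such as aggrecan, brevican and versican. TIMPs bind to the active site of many, but not all, of these enzymes and block it. In the oligodendrocyte lineage such enzymes are known for their part in migration, in the outgrowth of processes and in the turnover of the proteoglycan matrix.

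Values are FPKM, which is per transcript length and library size, so levels of different genes can be set side by side. Each difference is the male mean minus the female mean of log2(FPKM + 1), with its standard error, and adding 1 makes the change of low genes look smaller. Per library the FPKM values added up to 648383 to 773919. The absolute depth is unknown, and the steps between low values gave depths relative to male 1 from 0.304 in female 1 to 0.98 in female 3. Male 1 and female 3 were the deepest libraries, and of all pairs of a male and a female library their deviations from the group means correlated most (r = 0.242 across the tested genes, which are not independent replicates). The precursor markers Pdgfra and Olig2 were high in all cultures, between 215 and 339.9 FPKM and between 240.2 and 314 FPKM. Neu4, another precursor marker, was low, at 0.988 FPKM at most. Endothelial and pericyte markers did not sum to over 2.91 FPKM in any library. The 10 fibroblast and meningeal markers summed to 12.8 to 17.9 FPKM in male and 13.9 to 18.9 FPKM in female libraries. Most of this sum was Fbln1 (mean 15.6 FPKM), while Col1a2, Col3a1 and Dcn were listed at 0 in every library.

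Of the 70 members, 24 averaged 1 FPKM or more across the 8 libraries and were tested. They were all 4 Timp, 7 Mmp, 9 Adam and 4 Adamts genes. Another 20 were above 0 in at least 1 library but below the limit, and 26 were listed at 0 in every library. Membrane-anchored enzymes led the list. Mmp15 had the highest mean (287 FPKM), followed by Mmp16 (113 FPKM), the inhibitor Timp2 (109 FPKM), Adam9 (56.2 FPKM), Adam10 (39.1 FPKM) and Adam12 (38.1 FPKM). All members together held between 0.0989% and 0.131% of the summed FPKM of a library.

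**Figure D1:**
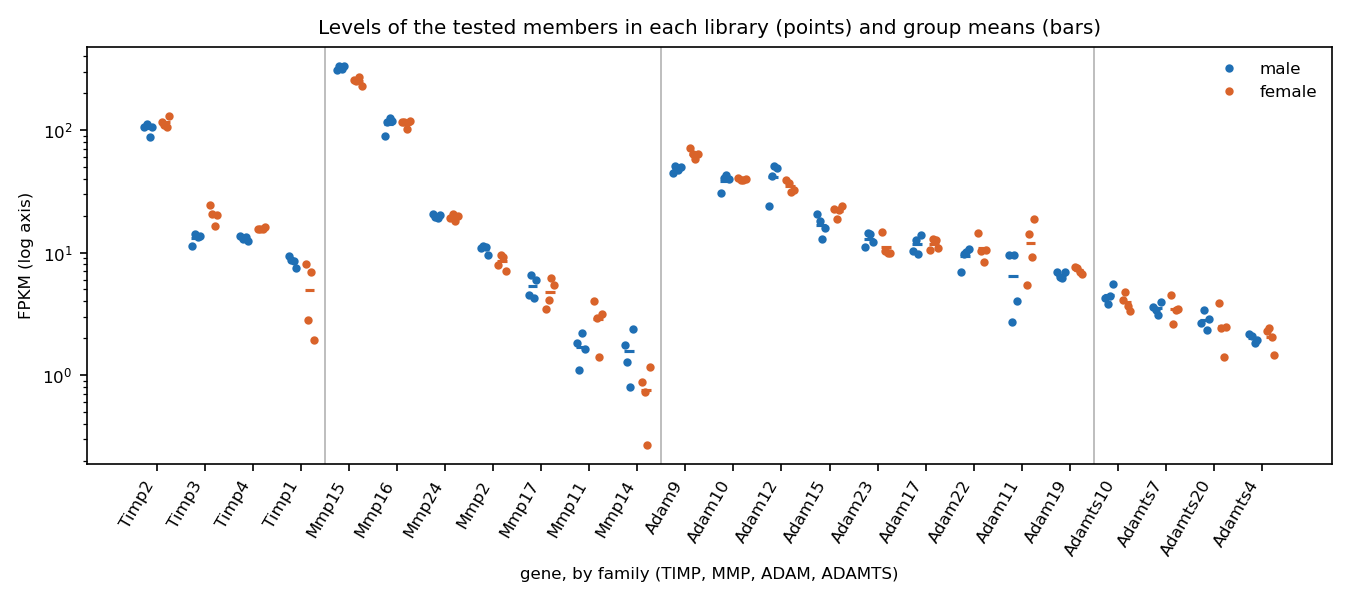
FPKM (log axis) of the 24 tested members in each library, by family, with male libraries in blue and female libraries in orange; points are libraries and short bars are group means of 4. Mmp15 lies between 228 and 334 FPKM, while every value of the 4 ADAMTS genes stays under 6 FPKM.

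Male and female cultures differed at 3 of the 24 tested members, Mmp15, Adam9 and Timp3. The threshold was a Benjamini-Hochberg adjusted p under 0.05 in limma-trend, adjusted over all 11263 tested genes. Over all those genes the same test called 6.04%, against 12.5% (3 of 24) of the members. Higher in male cultures was 1 member, against 3.14% of all genes, and higher in female cultures were 2 members, against 2.89% of all genes. These are small counts, and nothing particular to the families is read from them. The groups did not overlap at 4 of 24 members (16.7%), against 14.0% of all tested genes. The median difference was -0.017 over the 24 members and -0.0038 over all tested genes.

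Mmp15 (ENSRNOG00000012622), which encodes a membrane-type matrix metalloproteinase, was higher in male cultures. Its level was 310.4, 334, 318 and 331 FPKM in male cultures 1 to 4 and 254, 250.1, 271 and 228 FPKM in female cultures 1 to 4. Every male library was above every female one. The log2 difference was 0.37 ± 0.06 (SE), a ratio of means of 1.29 (limma-trend adjusted p = 0.00853). This call held in each of the 18 alternative settings tried, and without both male 1 and female 3 the count stayed at 1 member higher in male and 2 in female cultures.

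Timp3 (ENSRNOG00000004303), which encodes an inhibitor that binds to the matrix and blocks ADAM17 and aggrecanases as well as MMPs, was higher in female cultures. Its level was 11.3, 14.2, 13.5 and 13.6 FPKM in male cultures 1 to 4 and 24.6, 20.7, 16.5 and 20.4 FPKM in female cultures 1 to 4. The groups did not overlap, with female 1 highest and female 3 nearest to the male range. The log2 difference was -0.60 ± 0.13 (SE), and the female mean was 1.56 times the male mean (limma-trend adjusted p = 0.0193). The call was lost without male 3 (adjusted p = 0.0515) or without female 4 (adjusted p = 0.0592), with log2 differences of -0.61 and -0.60.

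Adam9 (ENSRNOG00000017231), which encodes a membrane-bound protease of the ADAM family, was also higher in female cultures. Its level was 44.5, 51.0, 47.0 and 50.3 FPKM in male cultures 1 to 4 and 71.8, 63.8, 57.5 and 63.4 FPKM in female cultures 1 to 4. The groups again did not overlap, and female 1 was again highest and female 3 lowest among female libraries. The log2 difference was -0.40 ± 0.08 (SE), with a female mean 1.33 times the male mean (limma-trend adjusted p = 0.0182). Without male 3 or female 4 the adjusted p was 0.0597 and 0.0534, at log2 differences of -0.39 and -0.41.

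Markers of other cell types also differed between the sexes. The summed level of 16 markers of microglia and macrophages lay between 68.9 and 88.1 FPKM in male libraries and between 206 and 255 FPKM in female libraries. Of 15 tested markers 12 were called, all higher in female cultures, and none was at 0 in every library. Over all 11263 tested genes 2.89% were called higher in female and 3.14% higher in male cultures. Of the 15, Cx3cr1 (called), Trem2 and P2ry12 (not called) passed the limit on low values only through the female libraries. Among female libraries this sum was highest in female 1 (255 FPKM) and lowest in female 3 (206 FPKM), the same libraries as for Timp3 and Adam9. Among male libraries it was highest in male 1 (88.1 FPKM), where Timp3 and Adam9 were lowest. The precursor markers summed to between 2062 and 2194 FPKM in male libraries and between 2501 and 2758 FPKM in female ones. This sum too was highest in female 1 and lowest among female libraries in female 3. Relative depth was lowest in female 1 (0.304), while female 3 (0.98) and male 1 (1.0) were the deepest libraries of their sex. With relative depth or its log2 as a covariate Timp3 and Adam9 stayed called. The Adam9 difference was then -0.34 or -0.32, against -0.40 without it. Whether depth bears on the order of the libraries was not tested. Of 11 tested neuron markers 4 were called, all higher in male cultures (Syt1, Stmn2, Gad1 and Gad2). The summed level of all neuron markers overlapped, at 347 to 385 FPKM in male and 320.0 to 446 FPKM in female libraries. Most of this sum was Map2, Dcx and Tubb3 (means 159, 75.4 and 64.9 FPKM), which were not called. Of 8 tested astrocyte markers none was called, and of 10 tested markers of differentiating oligodendrocytes 2 were called, both higher in female cultures. The part of these cells in the differences of Mmp15, Timp3 and Adam9 was not tested. In cultures measured in bulk, fewer cells of a type and less RNA per cell cannot be told apart.

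**Figure D2:**
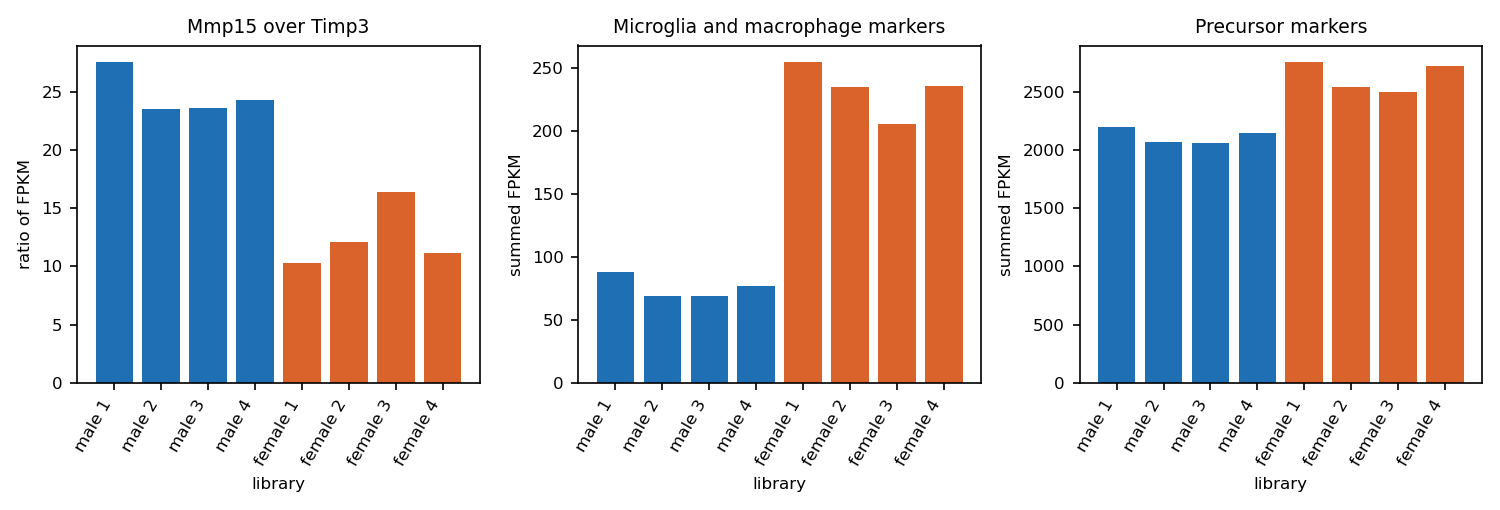
Ratio of Mmp15 to Timp3 (left), summed FPKM of the microglia and macrophage markers (middle) and of the precursor markers (right) in each library, male in blue and female in orange; each bar is 1 library. The ratio lies between 23.5 and 27.6 in male libraries and between 10.3 and 16.4 in female ones. Neither gene overlapped between the sexes, and they differed in opposite directions, so their ratio had to separate the sexes and adds no further evidence. Both marker sums are higher in every female library.

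The promoters of Mmp15 and Timp3 are shown because these members were called in opposite directions. RefSeq promoter sequences (assembly GRCr8) matched 17 of the 24 tested members by symbol, and Adam9, Adam11, Adam23, Mmp2, Mmp14, Mmp16 and Mmp17 had no entry in that table. The 250 bases before the annotated start follow, on the strand of the gene. Capitals mark the motifs searched on both strands, which do not overlap one another here. The Sp1 box was searched as GGGCGG, the box of the nuclear factor Y as CCAAT, and the TATA box as TATAAA. The site of AP-1, the Fos and Jun dimer, was searched as TGANTCA, and the site of the EGR factors as GCGTGGGCG.
Mmp15, chr19:9691001-9691250, minus strand: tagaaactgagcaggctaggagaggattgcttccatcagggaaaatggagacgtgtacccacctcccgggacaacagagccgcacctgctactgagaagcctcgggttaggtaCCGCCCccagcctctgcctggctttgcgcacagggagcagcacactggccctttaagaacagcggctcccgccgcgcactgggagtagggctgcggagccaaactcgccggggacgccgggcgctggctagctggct
Timp3, chr7:19459559-19459808, minus strand: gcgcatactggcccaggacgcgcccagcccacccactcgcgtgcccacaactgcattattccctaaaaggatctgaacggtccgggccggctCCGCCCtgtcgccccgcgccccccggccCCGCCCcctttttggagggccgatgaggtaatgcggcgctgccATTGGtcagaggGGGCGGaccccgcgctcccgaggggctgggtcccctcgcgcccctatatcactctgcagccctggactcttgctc

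The Mmp15 window held 1 Sp1 box, starting 137 bases before the start of the gene. The Timp3 window held 3 Sp1 boxes, at 158, 130 and 75 bases before the start, and 1 CCAAT box at 87 bases. No TATA box, AP-1 site or EGR site stood in either window. Over all 33469 promoters in the table, 30.5% held the Sp1 box, 34.0% the CCAAT box, 12.9% the TATA box, 6.34% the AP-1 site and 0.478% the EGR site in the same window. Among the 17 matched members, 14 held the Sp1 box, 4 the CCAAT box, 2 the TATA box, 1 (Adam19) the AP-1 site and none the EGR site. These members all averaged 1 FPKM or more, whereas the 33469 promoters were not chosen by expression. The 2 sets are therefore unlike, and no enrichment is read from the counts. Both windows were rich in G and C (63.6% for Mmp15 and 69.6% for Timp3, against a median of 51.2%), with 16 and 23 CG pairs against a median of 5. These are matches of letters and not measured binding sites.

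Among the inhibitors, Timp2 was the main transcript, with 70.9% to 77.1% of the summed Timp FPKM in each library. Timp2, whose product blocks MMPs and also helps membrane-type MMPs to activate MMP2, was at 107, 112, 88.1 and 106 FPKM in male cultures 1 to 4. In female cultures 1 to 4 it was at 117, 111, 105 and 129 FPKM. These ranges overlap, and the difference was -0.16 (95% interval -0.36 to 0.03), not past the threshold. Timp4, an inhibitor gene known for its expression in brain and heart, stood at 13.6, 13.0, 13.4 and 12.4 FPKM in male cultures 1 to 4 and at 15.5, 15.7, 15.5 and 16.1 FPKM in female cultures 1 to 4. All female values were above all male ones, but the difference of -0.25 ± 0.08 missed the threshold (limma-trend adjusted p = 0.119).

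Timp1, the inhibitor gene best known as induced by cytokines and growth factors, was the most uneven inhibitor (coefficient of variation 41.5% over the 8 libraries). It was at 9.30, 8.72, 8.52 and 7.41 FPKM in male cultures 1 to 4 and at 7.99, 2.82, 6.97 and 1.93 FPKM in female cultures 1 to 4. Female 2 and female 4 were low, while female 1 and female 3 lay at or near the male range. The difference of 0.83 ± 0.33 was not past the threshold (limma-trend adjusted p = 0.184). Its sign was opposite to that of the 3 other inhibitors. Timp3 held 8.0% to 10.9% of the summed Timp FPKM in male and 11.4% to 14.9% in female libraries.

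**Figure D3:**
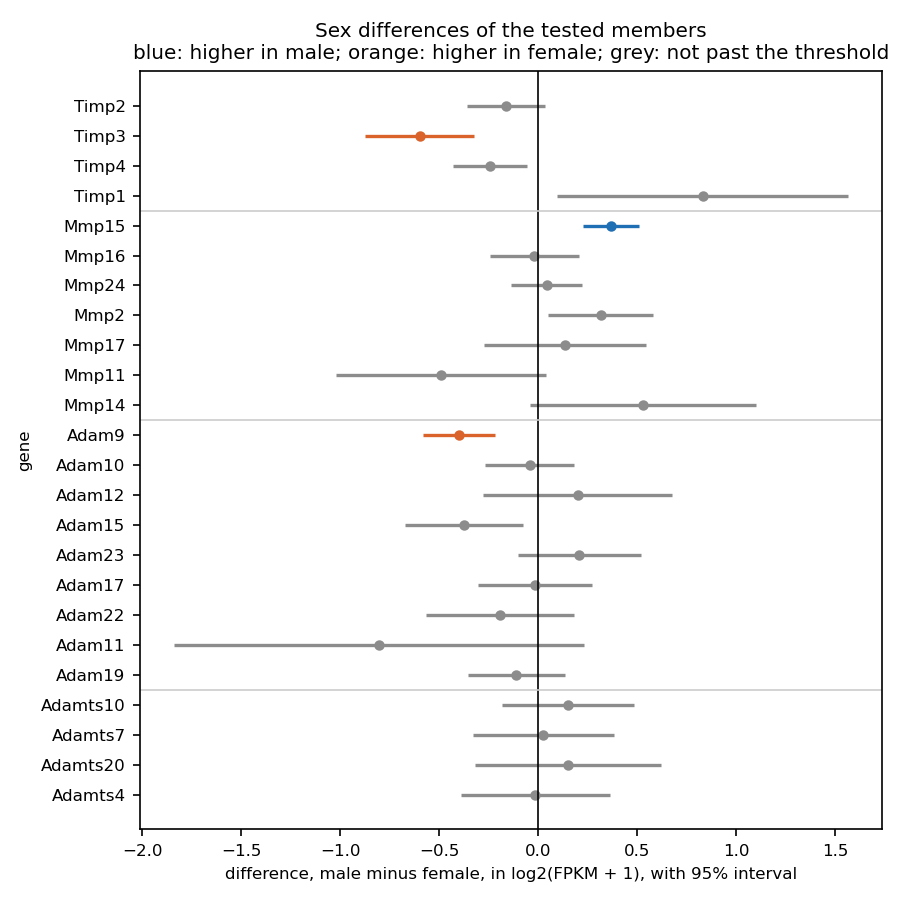
Difference between male and female cultures (horizontal axis, log2(FPKM + 1), with 95% interval) for the 24 tested members, grouped by family. Mmp15 in blue was called higher in male cultures, Timp3 and Adam9 in orange higher in female cultures, and the 21 grey members were not past the threshold.

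The MMPs of these cultures were nearly all membrane-anchored. Mmp14, Mmp15, Mmp16, Mmp17 and Mmp24 held 96.8% to 97.5% of the summed Mmp FPKM in each library. Mmp15 alone held 65.9% to 70.6% in male and 59.5% to 66.2% in female libraries, ranges that overlap through female 3. Mmp16, a membrane-type MMP gene, was at 88.9, 115, 126 and 119 FPKM in male cultures 1 to 4 and at 116, 116, 103 and 118 FPKM in female cultures 1 to 4. Male 1 was lowest and female 3 next, and the sexes overlapped (-0.02, 95% interval -0.25 to 0.20). Mmp24, a membrane-type MMP gene known from brain, was the most even member, with a coefficient of variation of 4.50%. It was at 20.8, 19.6, 19.3 and 20.2 FPKM in male cultures 1 to 4 and at 19.2, 20.5, 18.0 and 20.0 FPKM in female cultures 1 to 4, a difference of 0.04 with a 95% interval of -0.14 to 0.22.

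The other tested MMPs were lower. Mmp2, the gene of gelatinase A, was at 10.9, 11.4, 11.2 and 9.56 FPKM in male cultures 1 to 4 and at 7.97, 9.62, 9.24 and 7.13 FPKM in female cultures 1 to 4. The groups overlapped only between male 4 and female 2, and the difference of 0.31 ± 0.12 was not past the threshold (limma-trend adjusted p = 0.159). Mmp17, whose product is held in the membrane by a lipid anchor, had means of 5.33 ± 1.12 and 4.79 ± 1.21 FPKM (SD, n = 4 each) in male and female cultures. Mmp11, the gene of stromelysin-3, was at 1.69 ± 0.451 against 2.87 ± 1.09 FPKM (limma-trend adjusted p = 0.272). Mmp14, the gene of the membrane-type MMP that activates MMP2, was at 1.56 ± 0.675 against 0.756 ± 0.371 FPKM and passed the limit on low values only through the male libraries (limma-trend adjusted p = 0.273). Of the 22 Mmp genes, 12 were listed at 0 in every library, among them the collagenase genes Mmp1, Mmp8 and Mmp13 and the stromelysin genes Mmp3 and Mmp10. The gelatinase B gene Mmp9 was listed at 0.0929 FPKM in male 1 and at 0 elsewhere. Mmp12, the gene of an elastase of macrophages, was listed at 0 in all 8 libraries.

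Among the tested ADAM genes that encode active proteases (Adam9, Adam10, Adam12, Adam15, Adam17 and Adam19), values lay between 6.20 and 71.8 FPKM, and besides Adam9 none was called. Adam10, whose product cuts Notch, the amyloid precursor protein and the OPC proteoglycan NG2, was at 30.6, 40.9, 43.1 and 39.8 FPKM in male cultures 1 to 4. In female cultures 1 to 4 it was at 40.2, 39.1, 39.0 and 39.8 FPKM. Apart from male 1, which was low, the libraries lay close together, and the difference was -0.04 (95% interval -0.27 to 0.18). Adam17, whose product releases TNF and ligands of the EGF receptor, was at 10.3, 12.6, 9.73 and 14.0 FPKM in male cultures 1 to 4 and at 10.5, 13.0, 12.6 and 10.9 FPKM in female cultures 1 to 4. The difference was -0.02, with a 95% interval of -0.31 to 0.27.

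Adam12, the gene of a membrane protease also known as meltrin alpha, was at 24.0, 42.0, 51.0 and 49.1 FPKM in male cultures 1 to 4 and at 39.0, 37.0, 31.0 and 32.2 FPKM in female cultures 1 to 4. Male 1 was the lowest of all 8 libraries, whereas the other 3 male libraries were above all female ones. The difference was 0.20 ± 0.21 with all libraries (limma-trend adjusted p = 0.653). Without male 1 it was 0.43 and past the threshold (adjusted p = 0.0377), and without both male 1 and female 3 it was 0.38 and not past it (adjusted p = 0.0619). Adam15 was at 20.5, 18.1, 12.9 and 15.9 FPKM in male cultures 1 to 4 and at 22.7, 18.8, 22.1 and 24.1 FPKM in female cultures 1 to 4. The groups overlapped through male 1 and female 2, and the difference of -0.37 ± 0.14 was not past the threshold (limma-trend adjusted p = 0.137). Adam19 varied little, at 6.58 ± 0.380 against 7.19 ± 0.447 FPKM (SD, n = 4 each).

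Adam11, Adam22 and Adam23 encode members without protease activity, which act as receptors at the cell surface, with the secreted LGI proteins among their ligands. Adam22 was at 6.89, 9.64, 10.2 and 10.6 FPKM in male cultures 1 to 4 and at 14.3, 10.4, 8.36 and 10.4 FPKM in female cultures 1 to 4. Adam23 was at 11.2, 14.3, 14.3 and 12.1 FPKM in male cultures 1 to 4 and at 14.6, 10.3, 9.98 and 9.86 FPKM in female cultures 1 to 4. Female 1 was the highest library for both genes, and neither was called (differences -0.19 and 0.21, 95% intervals -0.57 to 0.18 and -0.10 to 0.52). Adam11 had the widest relative spread of the tested members, with a coefficient of variation of 58.3%. It was at 9.57, 2.73, 9.63 and 4.03 FPKM in male cultures 1 to 4 and at 5.42, 14.0, 9.21 and 18.9 FPKM in female cultures 1 to 4. Both sexes held libraries under 6 and above 9 FPKM, and the difference of -0.80 ± 0.45 was not past the threshold (limma-trend adjusted p = 0.362). Female 2 and female 4, the libraries highest in Adam11, were those lowest in Timp1.

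**Figure D4:**
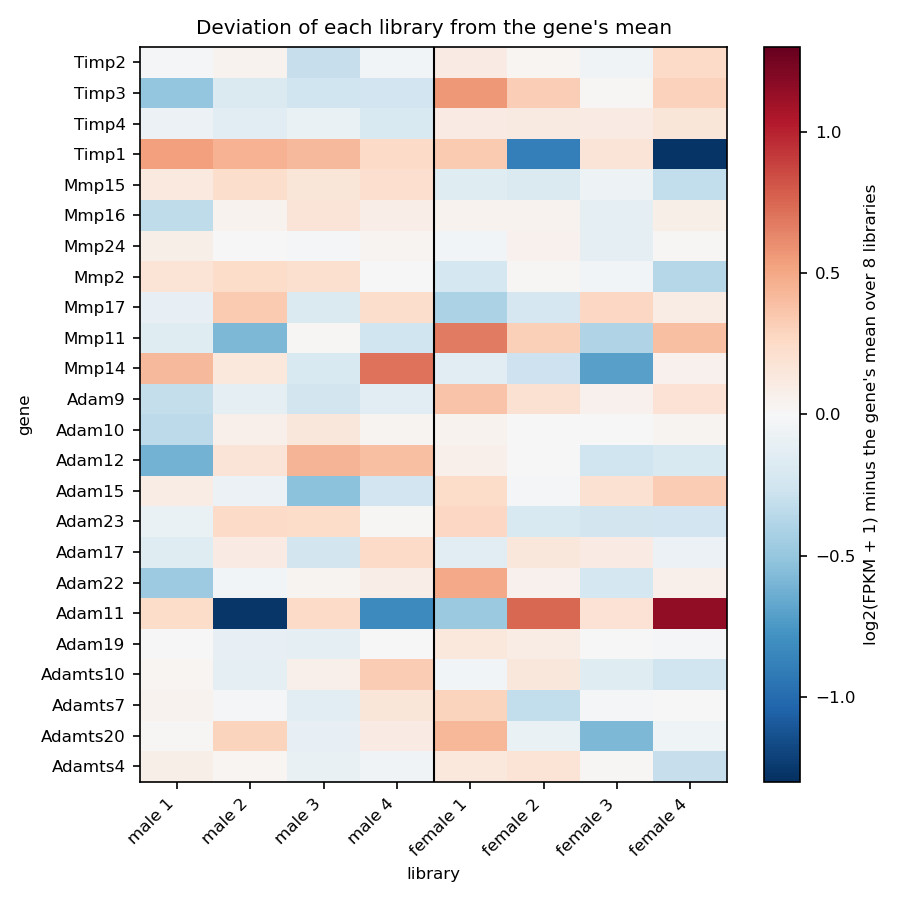
Deviation of each library (columns) from the mean of the gene over 8 libraries, in log2(FPKM + 1), for the 24 tested members (rows); red is above and blue below the mean, and the line parts male from female libraries. Adam11 and Timp1 vary most within a sex, and male 1 is lowest for Adam12, Mmp16 and Adam10.

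ADAMTS genes were low, and none of the 4 tested ones was called. Adamts10 had means of 4.50 ± 0.731 and 3.96 ± 0.615 FPKM (SD, n = 4 each) in male and female cultures, and Adamts7 of 3.51 ± 0.379 and 3.47 ± 0.770 FPKM. Adamts20, whose product cuts versican, was at 2.81 ± 0.447 against 2.53 ± 1.01 FPKM. Adamts4, the gene of an aggrecanase that also cuts brevican, was at 1.99 ± 0.155 against 2.05 ± 0.429 FPKM. The 95% intervals of the 4 differences reached from -0.39 to 0.62. Among the 15 Adamts genes below the limit only Adamts17 reached 1 FPKM in any library (1.45 FPKM at most), and the other main aggrecanase gene, Adamts5, stayed at or under 0.878 FPKM. Of the 16 Adam genes below the limit only Adam1a reached it in a library (1.10 FPKM at most), and 13 were listed at 0 in all libraries.

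Enzyme and inhibitor transcripts were also summed in each library. The summed Mmp FPKM was 439.5, 489.5, 482.3 and 490.5 in male cultures 1 to 4 and 405.5, 403.8, 409.3 and 383.1 in female cultures 1 to 4. The summed Timp FPKM was 140.8, 148.2, 123.5 and 139.5 in male cultures 1 to 4 and 165.1, 149.9, 144.5 and 167.9 in female cultures 1 to 4. Their ratio was 3.12, 3.30, 3.90 and 3.52 in male cultures 1 to 4 and 2.46, 2.69, 2.83 and 2.28 in female cultures 1 to 4, without overlap. The Mmp sum did not overlap either, while the Timp sum did, through male 2 and female 3. Mmp15 and Timp2 dominate these sums, so they add little to the values of those genes, and no test was made on them. The Adam genes summed to 165.1 to 205 FPKM in male and to 197.8 to 227.5 FPKM in female libraries, and the summed Adamts FPKM 15.02 to 18.05 against 13.45 to 19.46.

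Genes that activate, clear or otherwise regulate metalloproteinases were taken from a list of 44. Of 21 tested genes of this list, 1 was called towards male and 2 towards female cultures, and the median difference was 0.069. Over all 11263 tested genes the shares called were 3.14% towards male and 2.89% towards female cultures. The counts are small, and nothing particular to the list is read from them. Serpini1, the gene of neuroserpin, which inhibits the plasminogen activator tPA, was at 18.3, 18.9, 21.9 and 23.6 FPKM in male cultures 1 to 4 and at 7.86, 6.51, 7.79 and 5.50 FPKM in female cultures 1 to 4. The sexes did not overlap, and the difference was 1.46 ± 0.13 (limma-trend adjusted p = 0.00023). Of 11 tested neuron markers, 4 were called, all higher in male cultures, while 6 had positive and 5 negative differences. The summed level of the neuron markers overlapped between the sexes. Most of that sum was Map2, Dcx and Tubb3, whose differences were negative and not called (-0.13, -0.21 and -0.06). The part of neurons in the difference of Serpini1 was not tested. Pcsk6, the gene of a convertase that activates secreted precursors, was at 9.97, 9.29, 9.24 and 9.86 FPKM in male cultures 1 to 4 and at 21.4, 15.8, 12.8 and 17.4 FPKM in female cultures 1 to 4 (difference -0.73 ± 0.14, limma-trend adjusted p = 0.0119). Female 1 was highest and female 3 lowest among female libraries here too.

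Lrp1, the gene of an endocytic receptor that clears proteases and their complexes with inhibitors, was at 37.1, 35.05, 51.5 and 39.9 FPKM in male cultures 1 to 4. In female cultures 1 to 4 it was at 90.4, 65.4, 55.0 and 77.3 FPKM, all above the male values. The difference was -0.79 ± 0.16 (limma-trend adjusted p = 0.0182), and omitting male 2, male 4 or female 4 ended the call (largest adjusted p 0.0624), as did log2 relative depth as a covariate (adjusted p = 0.0627). Not past the threshold were Furin, another activating convertase gene (4.70 ± 0.286 against 6.61 ± 1.09 FPKM, limma-trend adjusted p = 0.110), and Bsg, whose product induces MMPs (364 ± 36.4 against 394 ± 15.5 FPKM, adjusted p = 0.399). Of the tetraspanin genes whose products guide ADAM10, Tspan5, Tspan14, Tspan15, Tspan17 and Tspan33 were tested and none was called. Among the regulators that were tested, Rhbdf1 and Frmd8, whose products carry ADAM17 to the cell surface, were not called either (limma-trend adjusted p = 0.518 and 0.320).

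Known substrates and binding partners were taken from a list of 40. Of 27 tested genes 7 were higher in female and 1 in male cultures, with a median difference of -0.095. Over all 11263 tested genes, 2.89% were called higher in female and 3.14% higher in male cultures. The list was written with earlier results of these data known, among them the female-higher call of Tnr, so its direction is no independent evidence. Cspg4 and Ptprz1, which are also precursor markers, were not called (limma-trend adjusted p = 0.0554 and 0.0845). Tgfa, whose product is an EGF receptor ligand released by ADAM17, was at 38.9 ± 2.31 against 57.6 ± 2.73 FPKM (-0.55 ± 0.07, limma-trend adjusted p = 0.00204). Genes of proteoglycans that ADAMTS enzymes cut were also higher in female cultures. Acan (aggrecan) was at 2.79 ± 0.322 against 7.13 ± 2.07 FPKM (adjusted p = 0.00828), Bcan (brevican) at 206 ± 9.14 against 263 ± 28.9 FPKM (adjusted p = 0.0281) and Vcan (versican) at 28.5 ± 0.854 against 42.4 ± 8.99 FPKM (adjusted p = 0.0409). Ncan (neurocan) was not called (75.5 ± 6.45 against 87.7 ± 8.89 FPKM, adjusted p = 0.200).

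Notch1, whose receptor is cut by ADAM10, was at 11.8, 11.4, 13.9 and 13.2 FPKM in male cultures 1 to 4 and at 25.6, 19.8, 16.4 and 21.6 FPKM in female cultures 1 to 4 (-0.67 ± 0.13, limma-trend adjusted p = 0.0133). The adhesion gene Ncam1 (96.9 ± 7.40 against 140.2 ± 21.9 FPKM, adjusted p = 0.0148) and the matrix gene Tnr (5.71 ± 0.995 against 17.8 ± 6.82 FPKM, adjusted p = 0.0111) were higher in female cultures as well. Lgi2, which encodes a ligand of the ADAM22 family, was the 1 called gene higher in male cultures (8.90 ± 0.929 against 5.83 ± 0.657 FPKM, adjusted p = 0.0310). The calls of Bcan, Lgi2 and Vcan were lost without 5, 6 and 7 of the 8 single libraries in turn (adjusted p up to 0.0896, 0.101 and 0.117), and that of Ncam1 without male 3 (adjusted p = 0.0525). With relative depth as a covariate Lgi2 and Vcan were not called (adjusted p = 0.0627 and 0.0532), and with its log2 neither they nor Bcan were (adjusted p = 0.0881, 0.0855 and 0.0732). Vcan was also not called with no filter on low values (adjusted p = 0.0765). In the same libraries precursor and microglia markers were also higher in female cultures (4 of 8 and 12 of 15 tested markers called), and their part in these differences was not tested.

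**Figure D5:**
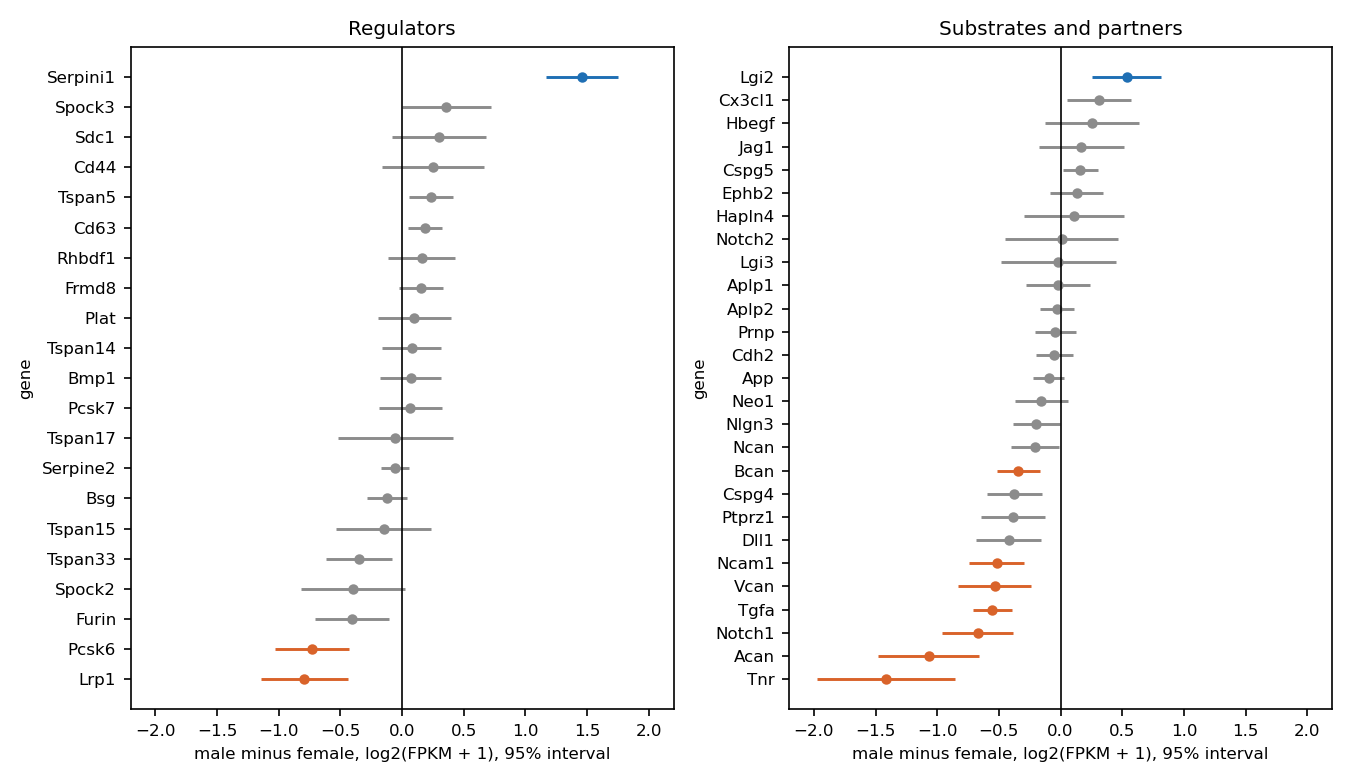
Difference between male and female cultures (horizontal axis, log2(FPKM + 1), with 95% interval) for the tested genes of the list of regulators (left, 21 genes) and of substrates and partners (right, 27 genes). Blue genes were called higher in male, orange genes higher in female cultures, and grey genes were not past the threshold; Serpini1 lies farthest towards male and Tnr farthest towards female cultures.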

How the data were processed

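The deposited values are FPKM for every gene in each library, per the file headers. Per the labels' protocols, libraries were prepared from total RNA with the Agilent SureSelect kit that keeps strand, and the series text names an Illumina MiSeq. The submitters' processing notes name Trimmomatic and FastQC. The sources used here do not give aligner, quantifier, genome build or annotation.

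From these values log2(FPKM + 1) was computed, and the 11263 genes averaging 1 FPKM or more across the 8 libraries were tested with limma 3.58.1 under R 4.3.3 (trend and robust options on), male against female, without covariates. P-values were adjusted by Benjamini-Hochberg over all tested genes, at a threshold of 0.05. Relative depth of a library was the most frequent ratio of low values in male 1 to those of the same genes in that library. FPKM holds no counts, so no interval from counts can be given.

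Members and lists were chosen with earlier results of these data known. Values in every library are given for members that were called or had a mean of at least 10 FPKM, and the other tested members are given by group means. The list genes given are those called, up to 8 per list. Values in every library of Timp1, Mmp2 and Adam11, the sums and ratios of families, and the uncalled list genes were chosen after values were seen. Promoter motifs were searched by letters. Protein sequences were not analysed here. Alternatives were other pseudocounts (0.1 and 5), no filter, a filter at 5 FPKM, quantile normalization, centring on library medians, the title number as a block, relative depth as a covariate, each library left out, and male 1 and female 3 left out together. The log2 of relative depth as a covariate was added after seeing the data.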

Additional observations from a re-analysis of the deposited data

Results flagged for a closer look

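Within groups of 4 libraries, 2 values of 48 groups (24 members in 2 sexes) stood apart from the other 3 by a gap that exceeded Dixon's 95% critical value of 0.829 of the group's range, which chance does in about 1 of 20 groups. Adam23 was at 14.6 FPKM in female 1, against 9.86 to 10.3 FPKM in the other female libraries. Mmp16 was at 103 FPKM in female 3, against 116 to 118 FPKM in the other female libraries.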

How the results depend on the processing

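Mmp15 stayed called as higher in male cultures in all 18 alternatives (differences 0.32 to 0.42, adjusted p up to 0.0444), and leaving out 1 library gave 1 to 2 members higher in male cultures, Adam12 joining without male 1. Members higher in female cultures were 2 in all alternatives but 3. With the replicate block they numbered 0 (adjusted p = 0.0591 for Adam9 and 0.0639 for Timp3), and Lrp1, Bcan, Lgi2 and Vcan also lost their calls (adjusted p = 0.0567, 0.0556, 0.0617 and 0.0802). Leaving out 1 library gave 0 to 2 members higher in female cultures, with 0 without male 3 or female 4. Over all genes 680 were called, 397 with the replicate block, 362 with log2 relative depth as a covariate, and 298 to 803 with 1 library left out. The labels do not say whether the title numbers pair the libraries. Deviations of same-numbered libraries correlated at -0.0851 to 0.0767, and male 1 correlated most with female 3. With 4 libraries per sex, these correlations cannot decide whether the numbers pair them. The causes of the changes in calls were not tested.

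Of the 24 members, 16 kept their sign in all alternatives, and the 8 with a change of sign were not called in any. With relative depth as a covariate the difference was 0.0043 for Adam10, 0.0069 for Adam17 and 0.054 for Mmp16, and with its log2 it was 0.0063 for Adam10, 0.0053 for Adam17, 8.15e-05 for Adam22, 0.022 for Adamts4 and 0.062 for Mmp16. With quantile normalization it was 0.0054 for Adam17, and with centring on library medians 0.00598 for Adam17, 0.0077 for Adamts4 and 0.0025 for Mmp16. Without male 1 and female 3 it was 0.054 for Adam10, 0.064 for Adam17, 0.041 for Mmp16 and -0.00998 for Mmp24. With 1 library left out, the range was -0.100 to 0.0606 for Adam10, -0.103 to 0.0579 for Adam17, -0.0757 to 0.127 for Adamts7, -0.0203 to 0.318 for Adamts20, -0.117 to 0.0419 for Adamts4 and -0.0792 to 0.0859 for Mmp16. Lower depth leaves low members such as Mmp14 and the Adamts genes with more error.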
